A study of Mus musculus with 4 samples.

Results

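In these nascent RNA libraries, 21 of 1394 divergent sites on mouse chromosomes 1 to 19 (1.51%) gave short transcripts in both directions. A divergent site is a point from which transcription leaves on the plus strand to one side and on the minus strand to the other. They were selected on measured reads of the 2 control siRNA libraries, pooled, with reads of score 10 or more placed by their 5′ ends and borders examined every 50 bp. A border qualified when at least 8 plus-strand reads started in the 300 bp after it and at least 8 minus-strand reads in the 300 bp before it, in the order of the coordinates. Each count also had to reach 3 times the reads of that strand on the wrong side plus 1, and the best border within 1 kb was kept. The 21 sites are those with fewer than 10 pooled reads of the outgoing strand at 1 to 5 kb on both sides. Of the other 1373 sites, 639 had 10 or more reads there on 1 side and 734 on both sides.

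The libraries come from GRO-seq, a run-on assay in which polymerases already on the DNA add labelled nucleotides to their RNA, so that the reads mark where and on which strand transcription was under way. The cells were 3T3-L1, an established mouse preadipocyte line. They carried a control siRNA (siCTL) or siRNAs that knock down GPS2 (siGPS2), a transcriptional cofactor, and each was sampled without FCCP and after 3 hours of FCCP, which uncouples mitochondrial respiration. Each of the 4 groups has 1 library, so a ratio between groups has no replicate check and the intervals given for counts, shares and ratios cover counting error only.

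RNA polymerase II starts in both directions at many promoters and at active enhancers, which are regulatory DNA elements that act on promoters at a distance. At promoters of genes, transcription in at least 1 direction usually runs on into a long transcript, whereas enhancer RNAs are mostly short and end soon after they start. Other short transcription units, such as small non-coding RNA genes, also give short nascent signal, and short divergent transcription alone does not name an enhancer. No chromatin mark was analysed here, and the gene annotation at hand is for another build than mm8, to which the submitters' processing notes assign the reads. The sites were therefore neither placed in genes nor called enhancers, and they are named by chromosome and border in mm8, with the minus arm being the 300 bp up to the border and the plus arm the 300 bp after it.

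The libraries hold 4199999 to 4200001 reads each, and 54.7% to 82.3% of them have a score of 10 or more, the share being lower in both siGPS2 libraries. Scale factors from 27619 windows of 10 kb were 0.827 to 1.222, and a scaled read below is a count divided by its library's factor. The siCTL library without FCCP was sequenced in run 183 on lane 8 and the other 3 in run 189 on lane 1, per the read names. The FCCP comparison in siCTL and the siGPS2 comparison without FCCP therefore cannot be told apart from the run. The choice of sites on the siCTL reads tends to lower siGPS2 relative to siCTL over the divergent sites, though not at each one. That contrast is therefore given as a description beside the other sites, which were chosen in the same way.

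The 21 sites lay on 13 chromosomes. Sites 1 to 3 were on chromosome 1, at 24567100, 164044100 and 172938850. Sites 4 and 5 were on chromosome 2, at 77752500 and 77796700, and sites 6 and 7 on chromosome 3, at 66062800 and 96521150. Site 8 was on chromosome 4 at 133182800, sites 9 and 10 on chromosome 5 at 144073300 and 149539600, and site 11 on chromosome 9 at 106018050. Sites 12 to 14 were on chromosome 11, at 59862450, 106828900 and 115229650, site 15 on chromosome 12 at 39439600, site 16 on chromosome 13 at 22023400 and site 17 on chromosome 14 at 56378400. Site 18 was on chromosome 15 at 98821250, sites 19 and 20 on chromosome 18 at 34534150 and 51165800, and site 21 on chromosome 19 at 22983950.

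Within the arms, the 5′ ends of the reads, called starts here, formed 2 separate fields, one on each strand, as the rule asks in siCTL. A start here is where a read begins, which marks where transcription was under way and not where it began. The distance between the median minus-strand start and the median plus-strand start had a median of 317 bp over the 21 sites (quartiles 234 and 366, range 121 to 500), beside 300 bp at the other divergent sites. Starts were closest together at site 19 (121 bp), site 16 (148 bp) and site 15 (198 bp) and farthest apart at site 14 (500 bp). The 300 bp arms cap this distance, and at several sites the starts ran past them. At site 14, 112 outgoing pooled siCTL reads started at 301 to 1000 bp, at site 4 there were 86 and at site 3 there were 84, against a median of 18 over the 21 sites. By the choice of sites the signal stopped after that: in siCTL without FCCP the arms held 28.2 outgoing reads per kb and the stretch from 1 to 5 kb held 0.393, against 28.2 and 9.13 at the other divergent sites. In the siGPS2 libraries, which had no part in the choice, 17 of the 21 sites also had fewer than 10 outgoing reads at 1 to 5 kb on each side. The exceptions were sites 5, 11, 15 and 19, with 10 to 19 reads on the plus strand there. This limit was not scaled to the siGPS2 libraries, which hold fewer reads of score 10 or more, and the other divergent sites were not counted by it. Per kb, the short sites held 0.315 reads at 1 to 5 kb in siGPS2 and 0.452 with FCCP, against 6.22 and 6.03 at the others.

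**Figure D1:**
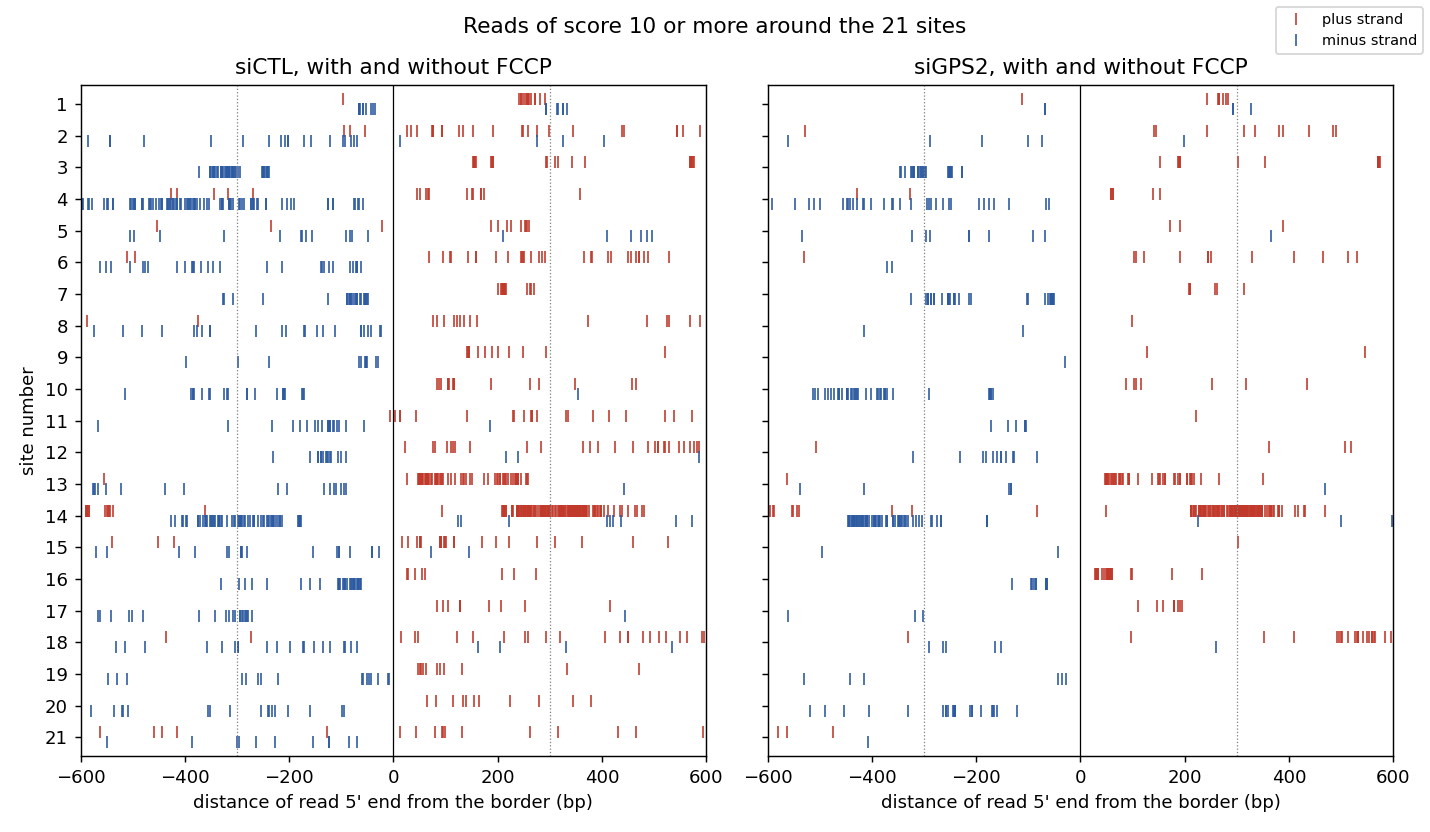
Each tick is the 5′ end of a read of score 10 or more within 600 bp of a site's border (x axis, bp; 1 row per site), plus strand in red and minus strand in blue, with the 2 siCTL libraries pooled on the left and the 2 siGPS2 libraries on the right and dotted lines at the 300 bp arm ends. Plus-strand starts lie to the right of the border and minus-strand starts to the left in siCTL, and sites 15 and 21 hold 1 read and 0 reads in the siGPS2 arms.

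**Figure D2:**
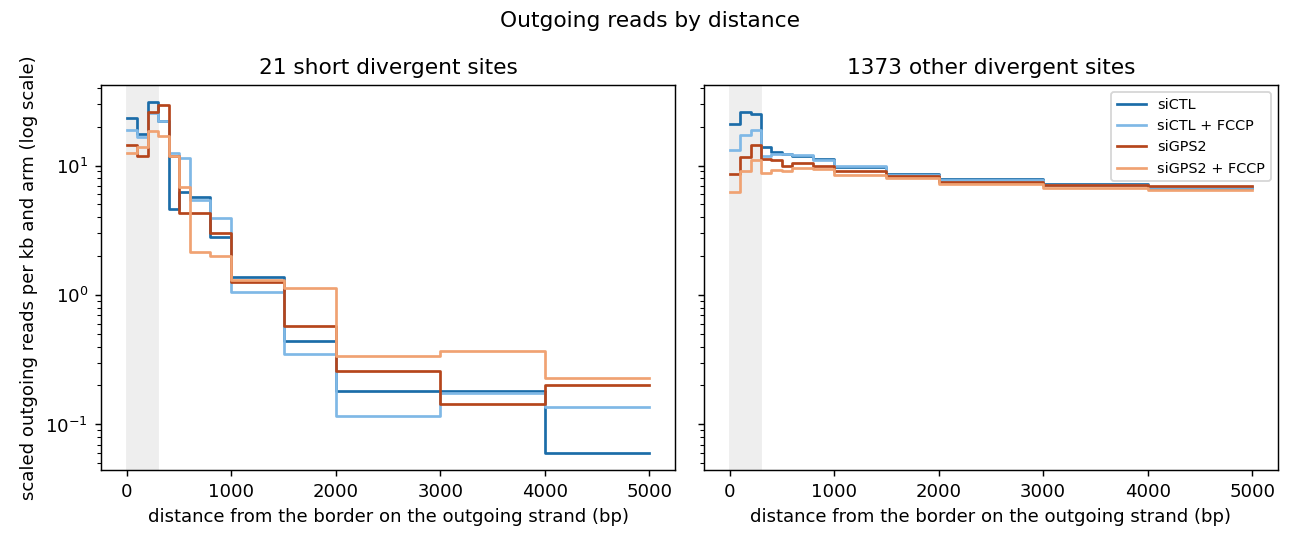
Scaled outgoing reads per kb and arm (y axis, log scale) are drawn against distance from the border (x axis, bp) for the 21 short sites on the left and the 1373 other divergent sites on the right, 1 line per library, with the 300 bp arms shaded. The short sites leave the level of the others beyond the arms, as the rule requires in siCTL, and from 1 to 5 kb they hold 0.315 and 0.452 reads per kb, before scaling, in the siGPS2 libraries against 6.22 and 6.03 at the others.

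The divergent shape itself was looked for in the siGPS2 libraries. At 13 of the 21 sites (61.9%, exact binomial 95% interval 38.4 to 81.9) the pooled siGPS2 reads were present on both outgoing strands and exceeded the incoming reads there, and at the other divergent sites the same held for 877 of 1373 (63.9%). At 7 of the short sites an outgoing strand had no siGPS2 read. Incoming reads, those of a strand on its wrong side, made up 3.21% of arm reads at the short sites in siGPS2 and 0.629% in siGPS2 with FCCP, against 7.38% and 7.96% at the other sites. The shares of the short sites rest on only 6 and 1 incoming reads, those of the others on 630 and 522. Searched for by the same rule, the pooled siGPS2 reads gave 559 divergent sites and 33 short ones, and sites 14 and 16 were the 2 members among those 33. No other member was among the 559. How many of all 1394 sites were found again was not counted, so the recovery of the members has no share to stand beside.

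The sites were weak on the whole. Pooled siCTL reads over both arms were 17 to 97 per site with a median of 25, and 12 of the sites had 17 to 25. Summed over the 21 sites, the libraries held 355 reads in siCTL without FCCP and 312 with it, and 181 and 158 in siGPS2, or 301, 255, 219 and 188 after scaling. Sites 13 and 14 alone carried 26.1% of the siCTL reads and 33.9% of the siGPS2 reads. In siGPS2, 12 of the sites had fewer than 10 reads over both libraries and 6 had 20 or more.

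**Figure D3:**
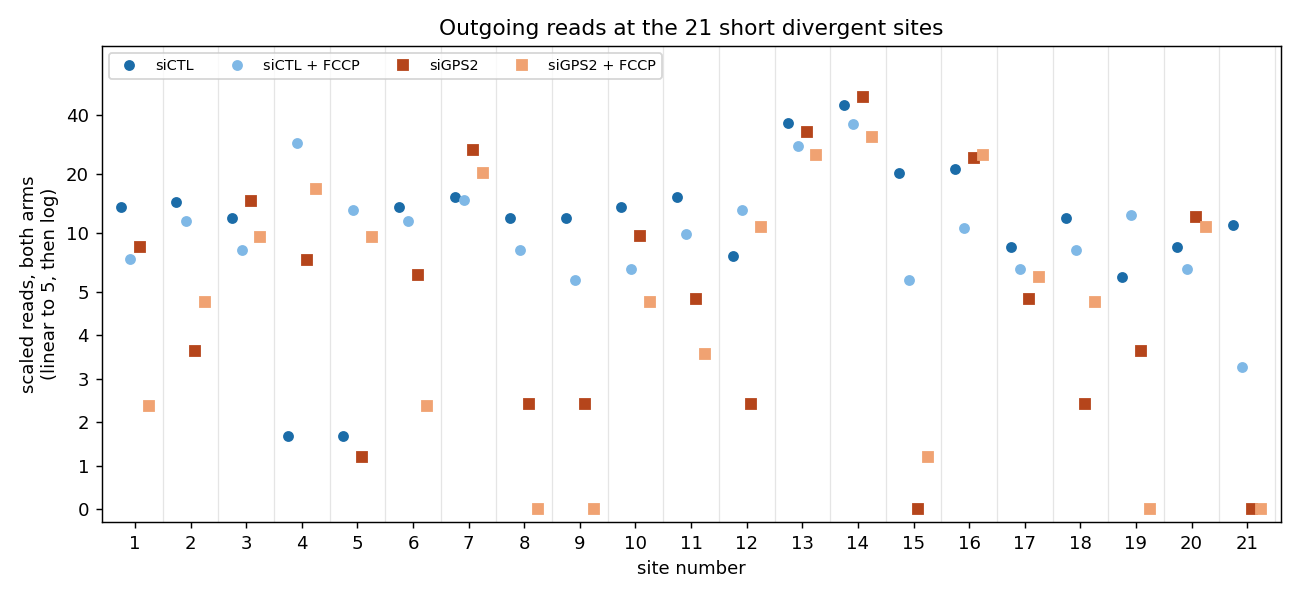
Scaled outgoing reads over both arms (y axis, linear to 5 and then logarithmic) are plotted for each of the 21 sites (x axis, site number), 1 point per library. Sites 13 and 14 stand highest, apart from siCTL with FCCP, where site 4 passes site 13, and siGPS2 with FCCP, where site 16 equals site 13, and sites 4 and 5 have their FCCP points above their untreated points in both siRNAs.

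Site 14 was the strongest site, with 53 reads in siCTL, 44 with FCCP, 41 in siGPS2 and 26 in siGPS2 after FCCP. It was present in all 4 libraries, and its FCCP log2 ratio was -0.32 in siCTL (95% interval -0.93 to 0.29) and -0.67 in siGPS2 (-1.45 to 0.06). Site 13 had 43, 34, 27 and 21 reads in the same order, and its plus strand carried most of them, with 36, 32, 26 and 19 reads against 7, 2, 1 and 2 on the minus strand. Site 16 had 25, 13, 20 and 21 reads and site 7 had 18, 18, 22 and 17. Each of these 4 sites held at least 13 reads in every library, and their reads were packed, at site 16 mainly in siGPS2. At sites 7, 13 and 14 between 85.4% and 97.0% of reads lay within 10 bp of another read of their strand in each siRNA, and at site 16 the share was 63.2% in siCTL and 92.7% in siGPS2. The median over the 21 sites was 58.3% in siCTL, and that of the other divergent sites was 56.5%. In siGPS2 the medians were 55.6% and 20%, over the sites with a read. Packing was not limited to these 4 sites. The share was 92% in siCTL and 55.6% in siGPS2 at site 1, 91.7% and 95% at site 3, and 94.6% and 60% at site 4.

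Several sites could be read only in part by unique alignments. The score, which runs from 0 to 42, was read here as a mapping quality, with low values for reads that fit several places. Of the pooled siCTL arm reads, 8.28% had a score of 10 or more at site 1, 18.6% at site 3 and 49.0% at site 10, and at the other 18 sites at least 50% did. In siGPS2 the share was under 50% at 6 sites, among them site 4 (44.4%) and site 16 (40.6%). At site 1 the count over every score was 176, 126, 171 and 122 in the 4 libraries, against 16, 9, 7 and 2 reads of score 10 or more. Over all 21 sites 52.1% of siCTL reads and 35.7% of siGPS2 reads reached the score, compared with 86.3% and 79.3% at the other divergent sites. What the sites lose to the score differs between the siRNAs, and its part in the siGPS2 comparison was not tested site by site.

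After FCCP most of the sites held fewer scaled reads, and 2 neighbours on chromosome 2 held more in both siRNAs. Site 4 had 2 reads in siCTL and 35 in siCTL with FCCP, and 6 in siGPS2 and 14 in siGPS2 with FCCP. Site 5 had 2 and 16 reads in siCTL and 1 and 8 in siGPS2. The siCTL library with FCCP brought both sites past the minimum of reads, so their siCTL ratio follows from the choice of sites. The log2 ratio at site 4 was 3.78 in siCTL (95% interval 2.12 to 7.18) and 1.14 in siGPS2 (-0.27 to 2.87). At site 5 it was 2.67 in siCTL (0.86 to 6.11) and 2.48 in siGPS2 (0.08 to 8.45). The siGPS2 pair was not used to find the sites and was sequenced on 1 lane. There the interval excluded no change at site 5, which rests on 9 reads, and included it at site 4.

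The FCCP coefficient over both siRNAs was tested with limma-voom on all 1335 divergent sites of 20 or more reads, of which 20 were short sites. In its siCTL pair the libraries differ in sequencing run, so the coefficient also carries any run difference. The 2 sites on chromosome 2 ranked 1 and 2 from the top, at a log2 change of 2.58 (SE 0.78) for site 5 and 2.42 (SE 0.70) for site 4. Their Benjamini-Hochberg adjusted p in limma was 0.072 and 0.0542, so neither passed the threshold of 0.05, and the siCTL reads that chose the sites enter this test. No short site was called: 0 of 20 higher, beside 0.15% of all sites (2 of 1335), and 0 of 20 lower, beside 0.824% (11 of 1335). Before adjustment 2 short sites were higher and 3 lower at p below 0.05 in limma, and over all sites 12 were higher and 298 lower. The model leaves 1 residual degree of freedom per site. On simulated counts it called 5 of 91 sites with a planted 2-fold change and 55 of 100 with a 4-fold change. The lack of calls therefore does not show that the short sites were unchanged. The median coefficient was -0.37 over the 20 short sites and -0.52 over all sites.

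**Figure D4:**
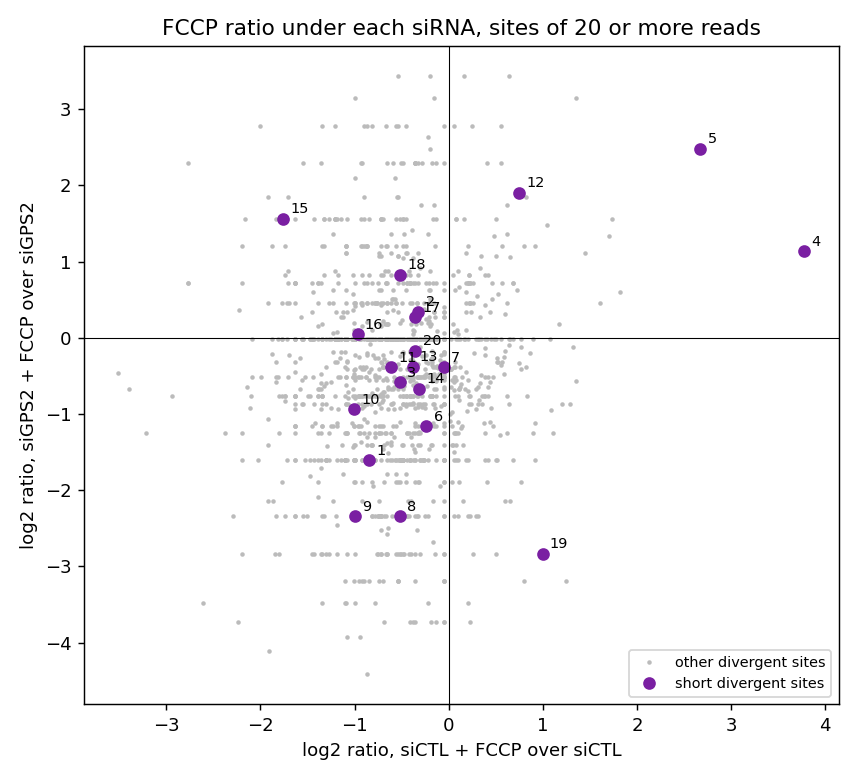
Log2 ratio of FCCP over no FCCP in siCTL (x axis) against siGPS2 (y axis), with 0.5 added to each count, for the 20 short sites (numbered, purple) and the other divergent sites (grey) of 20 or more reads over the 4 libraries. Sites 4, 5 and 12 lie above 0 on both axes, and the sites below 0 on both axes number 11.

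Sites 4 and 5 lie 44.2 kb apart, and the stretch between them was followed on each strand. Minus-strand reads there were 6 in siCTL and 26 in siCTL with FCCP, and 10 in siGPS2 and 33 in siGPS2 with FCCP, which is 4.19-fold and 3.25-fold higher after scaling. On the plus strand, siCTL had 34 reads without and 44 with FCCP and siGPS2 had 29 and 46, or 1.25-fold and 1.56-fold. In the 50 kb before site 4, a strongly transcribed minus-strand stretch held 3859 and 4764 reads in siCTL and 1948 and 2349 in siGPS2, 1.19-fold higher with FCCP in both. A divergent site that feeds long transcription lay 5.25 kb before site 4, at 77747250, with 42, 63, 27 and 41 reads and FCCP log2 ratios of 0.53 and 0.57. In the 50 kb after site 5, minus-strand reads were 1.80-fold higher with FCCP in siCTL and 1.74-fold in siGPS2, and plus-strand reads, at no more than 15 in any library, 1.55-fold and 2.46-fold. Each of these stretches thus held more scaled reads with FCCP in both siRNAs. In siGPS2, site 4 at 2.20-fold lay below the minus strand between the sites and site 5 at 5.58-fold above it, without a test of these differences. The site values have 0.5 added to each count and the stretch values do not.

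In the siGPS2 pair, which did not choose the sites, the reads of sites 4 and 5 were also counted in other ways. With every score counted, site 4 had 18 reads without and 27 with FCCP, and site 5 had 3 and 11. With the top score of 42 alone, site 4 had 1 and 5 and site 5 had 1 and 5. With reads within 10 bp counted as 1 cluster, site 4 had 5 and 9 clusters and site 5 had 1 and 7. These counts are of the same 2 libraries and small.

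Site 12 was the remaining site above 0 in both siRNAs. It had 9 reads in siCTL and 16 with FCCP, and 2 in siGPS2 and 9 with FCCP, giving log2 ratios of 0.75 (95% interval -0.48 to 2.14) and 1.90 (-0.12 to 5.40). Both intervals include no change. Site 19 went from 7 to 15 reads in siCTL, a 2.00-fold difference just under the mark used below, and from 3 to 0 in siGPS2. Site 17 had 10 and 8 reads in siCTL and 4 and 5 in siGPS2.

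Among the sites with fewer reads after FCCP, site 15 held 24 reads in siCTL and 7 in siCTL with FCCP, 3.38-fold lower (log2 -1.76, 95% interval -3.29 to -0.57). The untreated library, with 14 plus-strand and 10 minus-strand reads, brought it past the minimum of 8, against 5 and 2 with FCCP. This siCTL ratio therefore follows from the choice of sites, and all siCTL counts in this paragraph are reads that chose the sites. The limma coefficient of site 15 was -1.36 (SE 0.50), with an adjusted p of 0.102. Site 9 had 14 and 7 reads, site 10 had 16 and 8, site 1 had 16 and 9 and site 8 had 14 and 10, all in siCTL. In siGPS2 these 5 sites held few reads: 0 and 1 at site 15, 2 and 0 at sites 8 and 9, 8 and 4 at site 10 and 7 and 2 at site 1. Site 21 had 13 and 4 reads in siCTL and none in siGPS2, and its total of 17 kept it out of the limma test.

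Counted by a 2-fold difference among sites of 20 or more reads in the pair, 1 of 17 short sites was higher with FCCP in siCTL, site 4, beside 1.22% of all divergent sites. Lower by 2-fold were 3 of 17, sites 9, 10 and 15, beside 25.1% of all sites. In siGPS2, 1 of 6 was higher, again site 4, beside 2.41%, and 0 of 6 were lower, beside 10.2%. In siCTL 17 of 21 sites were below 0, or 81%, against 82.7% of the others, and in siGPS2 12 of 20, or 60%, against 72.7%. Of the 20 sites with reads in both pairs, 11 were below 0 in both siRNAs (55%) and 3 above in both, while 60.9% and 5.51% of the other sites were.

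Summed over the 21 sites, the FCCP log2 ratio was -0.24 in siCTL (95% interval -0.46 to -0.01) and -0.22 in siGPS2 (-0.54 to 0.10). The other divergent sites gave -0.55 (-0.58 to -0.52) and -0.41 (-0.46 to -0.36). The smaller sum in siCTL rested on sites 4 and 5: without these 2, chosen after their values were seen, it was -0.48 (-0.71 to -0.24) in siCTL and -0.38 (-0.71 to -0.05) in siGPS2. With upper-quartile scaling of all 21 sites the siCTL value was 0.01.

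The siGPS2 libraries held fewer reads at most of the sites. The summed log2 ratio of siGPS2 over siCTL was -0.46 without FCCP (95% interval -0.72 to -0.20) and -0.44 with FCCP (-0.73 to -0.16), and at the other divergent sites it was -1.04 and -0.91. With every score counted, the search gave 34 short sites, and only 15 of the short sites described here were among them. Summed over those 34 sites, the log2 ratios were 0.40 without FCCP and 0.37 with FCCP. The sites summed changed along with the reads, and the cause of this change of sign was not tested. By 2-fold without FCCP, 0 of 12 sites were higher, beside 6.89% of all divergent sites, and 4 of 12 were lower, sites 2, 6, 11 and 15, beside 56.7%. With FCCP, 1 of 7 was higher, site 16, beside 12.8%, and 0 of 7 were lower, beside 34.4%.

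Site 15 was the clearest low site, with 24 and 7 reads in siCTL and 0 and 1 in siGPS2. Without FCCP it was at least 5.60-fold lower, taking 3 counts in the empty library as the limit. Site 21, with 13 and 4 reads in siCTL and none in siGPS2, was at least 3.04-fold lower without FCCP by the same limit. Sites 8 and 9 each had 14 reads in siCTL and 2 in siGPS2, 4.06-fold lower (log2 -2.02, 95% interval -5.47 to -0.17). With FCCP site 8 had 10 and 0 reads, at least 2.29-fold lower, and site 9 had 7 and 0, at least 1.60-fold lower.

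Site 18 had 14 and 10 reads in siCTL and 2 and 4 in siGPS2, so that without FCCP it matched sites 8 and 9. Site 2 had 17 and 14 reads in siCTL and 3 and 4 in siGPS2. Site 11 had 18 and 12 reads in siCTL and 4 and 3 in siGPS2, and site 6 had 16 and 14 against 5 and 2. These 4 sites were lower in siGPS2 in both FCCP states.

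At the upper end, site 16 had 25 and 13 reads in siCTL and 20 and 21 in siGPS2, site 7 had 18 and 18 against 22 and 17, and site 20 had 10 and 8 against 10 and 9. At site 16 the log2 ratio was 0.20 without FCCP (95% interval -0.73 to 1.10) and 1.21 with FCCP (0.17 to 2.35). With score 42 alone it had 4 and 5 reads in siCTL and 1 and 1 in siGPS2, which turns the direction. Site 3, with 14 and 10 reads against 12 and 8, was the remaining site above 0 in both FCCP states after scaling. At site 7 and site 16 the reads were distributed differently over short stretches in the 2 siRNAs, as described next.

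The share of outgoing reads on each strand was set side by side for the siRNAs. The rule asks for at least 8 siCTL reads on each strand, which holds weak sites near balance in siCTL and leaves siGPS2 free, so these shares are a description. The 95% intervals of the 2 siRNAs stood apart at 3 of the 20 sites with a siGPS2 read, beside 6.89% of all divergent sites with one (94 of 1364), which were chosen in the same way. At site 16, 8 of 38 outgoing siCTL reads were on the plus strand (21.1%, exact binomial 95% interval 9.55 to 37.3) and 29 of 41 siGPS2 reads were (70.7%, 54.5 to 83.9). Each siGPS2 library showed this, at 70.0% and 71.4%, against 12% and 38.5% in siCTL. The plus-strand reads of siGPS2 lay mostly in 1 short stretch, from 27 to 60 bp after the border, which held 2, 3, 12 and 13 reads in the 4 libraries. Counted as clusters of 10 bp, the plus strand of site 16 had 3, 4, 3 and 3 clusters, so the strand difference was one of reads within few positions. At score 42 the plus strand held 1, 2, 1 and 0 reads, too few to give a share.

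Site 7 had a like stretch on the minus strand, from 300 to 201 bp before the border, with 0, 1, 11 and 9 reads in the 4 libraries. Its other minus-strand stretch, from 110 to 49 bp before the border, held 9, 12, 8 and 6. At site 14 the plus-strand share was 60.8% in siCTL (50.4 to 70.6) and 86.6% in siGPS2 (76.0 to 93.7). The minus-strand reads of site 14 in siGPS2 lay in part beyond the arm, where 144 outgoing siGPS2 reads of either strand started at 301 to 1000 bp, so this share depends on the arm length.

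At lower counts, site 20 had 9 plus-strand reads of 18 in siCTL and 0 of 19 in siGPS2, for which the interval ends at 17.6%. Site 17 had 9 of 18 in siCTL and 9 of 9 in siGPS2 (66.4 to 100%), and site 6 had 17 of 30 and 7 of 7. Site 12 had 10 of 25 in siCTL and 0 of 11 in siGPS2. The intervals do not meet at site 20, where that of siCTL starts at 26.0%, and they overlap at sites 6, 12 and 17.

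**Figure D5:**
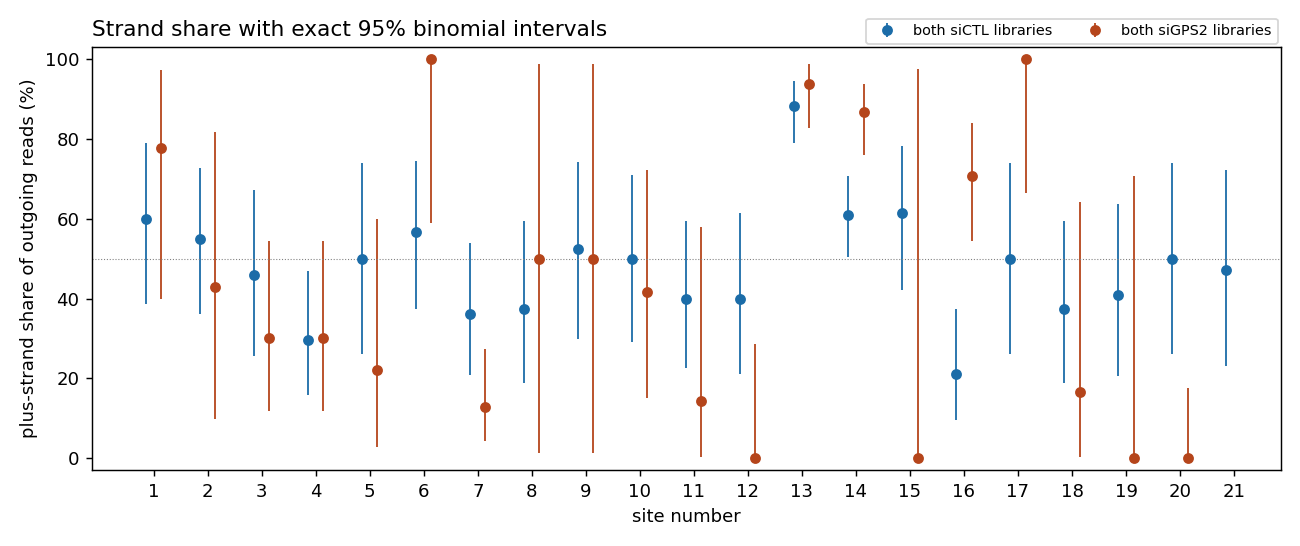
Plus-strand share of outgoing reads (y axis, percent) at each site (x axis, site number) for the 2 siCTL libraries pooled (blue) and the 2 siGPS2 libraries pooled (red), with exact binomial 95% intervals; site 21 has no siGPS2 read. The intervals of the siRNAs stand apart at sites 14, 16 and 20.

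The surroundings of the sites ranged from silent to strongly transcribed. Pooled siCTL reads on both strands in the 40 kb made up of 5 to 25 kb on each side had a median of 141 per site, against 453 at the other divergent sites. Site 9 had none, site 1 had 3, site 15 had 4, site 20 had 5, site 21 had 8 and site 8 had 10, and 7 sites had more than 300. The highest was site 4 with 3416, followed by site 2 with 1853. The nearest other divergent site was at a median distance of 226 kb, against 249 kb for the rest, and 6 of the short sites had one within 50 kb while 7 had none within 500 kb.

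The limit at 1 to 5 kb divides a continuous range. Just inside it, site 14 had 9 plus-strand reads there and site 19 had 9. Just outside it were 5 sites whose larger count was 10, such as the site on chromosome 3 at 19820350, with 62 plus-strand and 53 minus-strand reads in its arms, and the site on chromosome 6 at 51048650, with 14 and 14. The first held 73, 42, 23 and 22 reads in the 4 libraries and the second 21, 7, 4 and 5.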

How the data were processed

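GRO-seq reads were analysed from 4 libraries of 3T3-L1 cells, 1 per group. The authors deposited aligned reads, 1 line per read, with a score from 0 to 42 that the files do not name and that was read here as a mapping quality. The submitters' processing notes list Bowtie, HOMER and mm8, without versions. Filters and other settings were not given in the sources used here, and no 2 reads in a library shared start, end and strand, though reads of different length can share a 5′ end. The equal totals of the deposited lists are not sequencing depths.

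Reads of score 10 or more were placed by their 5′ ends. The 21 sites and all comparisons were chosen with earlier results of these data known. Libraries were scaled by the median of ratios over 10 kb strand windows with at least 20 reads, and 0.5 was added to counts for single-site log2 ratios. Summed ratios have exact Clopper-Pearson 95% intervals. With 1 library a group only the FCCP term was tested, by limma-voom (limma 3.58.1, R 4.3.3; additive in siRNA and FCCP, two-sided, Benjamini-Hochberg adjustment), at sites of 20 or more reads over the 4 libraries. Its error comes from the interaction of siRNA and FCCP, pooled over sites. On simulated data the site search found 200 of 200 planted sites. The limma fit there called 5 of 91 sites with a planted 2-fold change, 55 of 100 with a 4-fold change and 0 of 1091 with none. Sites were named if among the 8 with the highest smaller arm, the 5 highest and 5 lowest by FCCP coefficient, the 3 highest and 3 lowest siGPS2 over siCTL, or at the limit at 1 to 5 kb. The remaining sites were described after their values were seen. Python 3.11.15 with numpy 2.4.6, pandas 2.3.3 and scipy 1.17.1 was used. The Gps2 gene was not placed in these coordinates, so the knockdown was not analysed here.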

Additional observations from a re-analysis of the deposited data

Results flagged for a closer look

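At 6 of the 20 short sites with reads in both pairs the FCCP ratio was on opposite sides of 0 in the siRNAs, with 1 library on each side, and the difference was not tested. It was above 0 in siCTL and below in siGPS2 at 1 short site, beside 159 of 1344 other divergent sites. The reverse held at 5 short sites, beside 293 of those 1344. At 2 of the 6 short sites, sites 15 and 19, the siGPS2 libraries held no more than 3 reads each (0 and 1, and 3 and 0), so no difference is given. At the other 4, the siGPS2 log2 ratio minus the siCTL one was 1.01 at site 16 (0.05 and -0.97), 0.66 at site 2 (0.34 and -0.32), 0.62 at site 17 (0.27 and -0.35) and 1.34 at site 18 (0.83 and -0.52). At 2 sites the siGPS2 against siCTL ratio changed sides between the FCCP states, again untested: with FCCP minus without, it differed by -2.64 at site 4 (-0.75 and 1.89) and by -0.35 at site 14 (-0.21 and 0.15). Both went from above 0 without FCCP to below 0 with it, as did 37 of the 1373 other divergent sites. The reverse change was seen at 77 of the others and 0 of the 21 short sites.

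Reads of score under 10, which the counts leave out, numbered 326 in siCTL, 274 in siCTL with FCCP, 326 in siGPS2 and 257 in siGPS2 with FCCP in the arms of the 21 sites. Chromosome X, which the rule leaves out, held 19 divergent sites, and 0 of them were short.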

How the results depend on the processing

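No paired analysis was possible because each group has 1 library and the labels give no replicate numbers. The distance between strand starts stayed within its quartiles in every setting run. The number of sites was 34 with every score counted, 6 with reads within 10 bp as 1 cluster, 7 at 12 reads per arm, 9 at fewer than 5 reads at 1 to 5 kb and 33 when found on siGPS2. The share divergent in siGPS2 was 83.3% with clusters. Changing the reads, the limits or the libraries searched also changed the sites summed. The cause of each shift below was not tested.

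The FCCP sum in siCTL was -0.52 at 12 reads per arm, -0.56 at fewer than 5 far reads, 0.01 with upper-quartile scaling and -0.48 without the 2 sites on chromosome 2; in siGPS2 it was -0.56 at 12 reads per arm. The siGPS2 against siCTL sum without FCCP was 0.40 with every score, -1.10 with score 42 alone, -0.09 at fewer than 5 far reads, -0.14 with upper-quartile scaling and 1.80 at sites found on siGPS2. With FCCP it was 0.37, -0.03 (clusters), 0.01 (fewer than 5 far reads) and 1.96 (sites found on siGPS2).

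In siCTL, sites 2-fold higher with FCCP numbered 2 with no minimum of reads, total-read or upper-quartile scaling and 0 with score 42, clusters, 12 reads per arm, fewer than 5 far reads, a minimum of 40 reads, siGPS2-found sites or without the 4 sites mostly below score 10 over the 4 libraries (1, 3, 4 and 10) or those on chromosome 2. Lower sites numbered 1 with a 99% interval, a pseudocount of 2 or either other scaling and 0 with clusters or a minimum of 40. In siGPS2, higher sites numbered 4 with no minimum or siGPS2-found sites, and 0 in the other settings that changed the count, among them a 99% interval and a pseudocount of 2. Lower sites there numbered 4 with every score, 5 with no minimum and 4 when found on siGPS2. By limma, 1 site was higher and 4 lower with every score, and 1 was lower with clusters or 12 reads per arm.

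Few reads limit the single sites: 12 of the 21 had under 10 over both siGPS2 libraries, and an empty library allows up to 3 counts.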
